A study of Mus musculus with 6 samples.

Results

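The cytosolic ribosomal protein genes encode the proteins that, with ribosomal RNA, build the large and small subunits of the ribosome outside the mitochondria. They were taken as every probe whose accession maps to a symbol that starts with Rpl or Rps and a number, plus Rplp0, Rplp1, Rplp2 and Rpsa, without the Rps6k kinases, pseudogenes and the mitochondrial Mrpl and Mrps genes. Of 89 such symbols in the gene table used for names, 84 had a named probe, and Rpl37rt, Rps23rg1, Rps27rt, Rpl32l and Rpl10l had none. The 84 genes are 46 genes of the large subunit, 31 of the small subunit, 6 paralogs (Rpl3l, Rpl7l1, Rpl22l1, Rpl36al, Rpl39l and Rps27l) and Rps19bp1, which encodes a binding protein of the small-subunit protein Rps19 and enters by its symbol alone. They had 121 probes, of which 120 passed the filter on dim spots, and 84 of 84 genes were tested among 22751 genes and unnamed probes.

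The mice were of strain C57/BL, their back skin had received either cyclosporin A or, as the control, ethanol, and it was sampled 2, 4 and 7 days later. Cyclosporin A is an immunosuppressant that blocks the phosphatase calcineurin, and excess hair growth is a known side effect. There were 6 dual-colour arrays, 2 for each day, and on each a cyclosporin A sample in Cy5 shared the array with an ethanol sample from that day in Cy3. The dyes were never swapped, so that an effect of the dye on a gene cannot be told apart from the treatment. The arrays of days 2 and 4 shared a slide and those of day 7 lay on another, so that slide and day 7 cannot be told apart either. The samples are labelled biological replicates without animals being named, and the p-values rest on how far these samples differ from each other. Whole skin was used, and fewer cells of a type and less RNA per cell cannot be told apart.

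Ribosomal protein mRNAs are among the most abundant of any cell, and growing cells make their proteins in matched amounts. Their mRNAs begin with a run of pyrimidines, the terminal oligopyrimidine tract, through which the TOR kinase pathway controls their translation. In skin, the cells that divide and grow most are those of the active hair follicle and the basal epidermis.

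On the average over the 3 days, 33 of the 84 ribosomal protein genes had a higher level in cyclosporin A skin than in ethanol skin and 0 a lower one (limma, Benjamini-Hochberg adjusted p under 0.05 over all genes tested). This was 39.3% of the members, beside 9.67% of all genes tested called higher, 13.1% called in either direction and 3.41% called lower. The changes were small. The median log2 ratio of cyclosporin A over ethanol was 0.24 for the members and 0.03 for all genes, with 68 of 84 members above 0, beside 56.5% of all genes, and the members ranged from -0.41 for Rpl4 to 0.79 for Rpl41. By subunit, 18 of 46 large-subunit genes, 14 of 31 small-subunit genes and 1 of 6 paralogs were called higher. The number of calls depended on how the ratio was corrected and on each of the 6 arrays, as the values further on show. With each array centred on its median and no correction for spot brightness, all 33 stayed among 83 called higher, beside 49.2% of all genes. With the scanner software's processed signals 4 of the 84 members were called, all of them among the 33. This was near the share of all genes, 5.24% called in either direction and 3.76% called higher. Without 1 array in turn, fewer members and a smaller share of all genes were called. No member stayed called without the second array of day 4. The median of the members lay between 0.22 and 0.3 in these fits.

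All ratios here are log2 values after a loess correction within each array, which removes the trend of the ratio with spot brightness. On single arrays the median ratio of the members was 0.16 and 0.14 at day 2, 0.34 and 0.51 at day 4, and 0.26 and 0.23 at day 7. The median of all genes lay between 0.01 and 0.06 on the 6 arrays. The median member was thus above the median gene on all 6 arrays, and by the widest margin on the second array of day 4. The first array of day 7 had the widest spread among members (SD 0.49, against 0.23 to 0.41 on the other arrays), and it also had the most spots marked as outliers by the scanner software, 126 against 15 to 44. Members above 0 numbered 59 and 58 at day 2, 79 and 76 at day 4, and 51 and 76 at day 7. Members with an outlier spot on an array have no value there and are not counted for it.

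**Figure D1:**
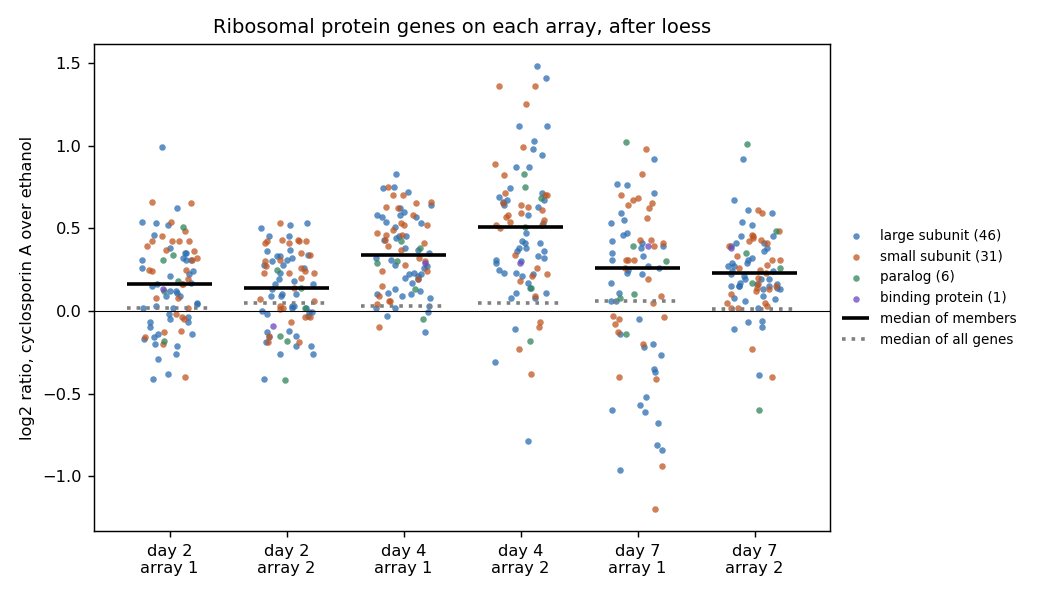
Log2 ratio of cyclosporin A over ethanol (vertical axis) of each ribosomal protein gene on each of the 6 arrays (horizontal axis), coloured by subunit class, with the median of the members as a black bar and that of all genes as a dotted grey bar. The black bars lie between 0.14 and 0.51 and are highest on the arrays of day 4, and the points of the first array of day 7 spread furthest below 0.

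At day 2, limma called 0 members (0% of all genes tested), while 19 members had an unadjusted p under 0.05, all of them higher in cyclosporin A skin. At that limit 9.68% of all genes stood, and 6.8% higher. The median was 0.13, with 59 of 84 means above 0, beside 57.5% of all genes. At day 4, limma again called 0 members (0.0044% of all genes), and 49 had an unadjusted p under 0.05, all higher, beside 15% of all genes in either direction and 10.5% higher. The median was 0.42, with 78 of 84 above 0, beside 56.8% of all genes. At day 7, 5 members were called higher and 0 lower, or 5.95%, beside 2.99% of all genes in either direction and 2.35% higher. The median was 0.19, with 63 of 84 above 0, beside 54.1% of all genes.

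The highest of the 3 daily means fell on day 4 for 64 members, on day 7 for 16 and on day 2 for 4. The change between days was tested for each member and limma called 0 of 84 in each of the 3 differences. At an unadjusted p under 0.05 stood 7 members between day 4 and day 2 (2.24% of all genes), 9 between day 7 and day 4 (4.47%) and 1 between day 7 and day 2 (6.13%). All genes tested were called in 0%, 0.202% and 0.264% of cases in these differences. The median member stood 0.28 higher at day 4 than at day 2 and 0.2 lower at day 7 than at day 4, with 79 members above 0 in the first difference (51.8% of all genes) and 17 in the second (48.2%). These differences between days, which share the arrays of day 4, were not past the test for any single member.

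On all 6 arrays, 34 members lay above 0, beside 15.7% of all genes with 6 values, and Rpl3 and Rpl4 lay below 0. Between the 2 arrays of a day the members' ratios correlated with a Pearson r of 0.6, 0.46 and 0.51 at days 2, 4 and 7, against 0.01, 0.43 and 0.59 for all genes. The members share arrays and brightness. The sign was shared by both arrays for 61, 75 and 55 members. Of the 84 members, 8 lacked a value on at least 1 array. They are left out of the correlations and counts in this paragraph that need that value.

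The 5 members called at day 7 were Rpl39l, Rpl41, Rpl7a, Rps23 and Rpl34, and each was also called on the average over days. Rpl7a encodes a protein of the large subunit. Its ratios were 0.53 and 0.52 at day 2, 0.72 and 0.63 at day 4, and 0.77 and 0.67 at day 7. All 6 values lay between 0.52 and 0.77. The normalized log2 signal at day 7 was 17.65 and 17.49 in cyclosporin A skin, against 16.88 and 16.82 in ethanol skin. Signals of this kind, here and below, are built from the same ratios and are no separate evidence. The day 7 mean was 0.72 (SE 0.11, 1.65-fold, adjusted p = 0.0251) and the average over days 0.64 (SE 0.06, adjusted p = 0.00819). Rpl7a is also the one member whose probes differed by over 1, as given further on.

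Rpl41 encodes the shortest ribosomal protein, a basic peptide of the large subunit. Its ratios were 0.99 and 0.45 at day 2, 0.83 and 0.66 at day 4, and 0.92 and 0.92 at day 7. It stood highest of the members on the average over days, and its arrays differed most at day 2. Its day 7 signal was 17.57 and 17.44 in cyclosporin A skin, against 16.66 and 16.52 in ethanol skin. The day 7 mean was 0.92 (SE 0.15, 1.89-fold, adjusted p = 0.0336) and the average 0.79 (SE 0.09, 1.73-fold, adjusted p = 0.00908).

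Rps23 encodes a small-subunit protein at the decoding centre, where codon and anticodon pair. Its ratios were 0.54 and 0.53 at day 2, 0.66 and 0.82 at day 4, and 0.83 and 0.59 at day 7. Rps23 had the brightest spots of the 84 members, with a day 7 signal of 17.84 and 17.72 in cyclosporin A skin, against 17.01 and 17.13 in ethanol skin. The day 7 mean was 0.71 (SE 0.12, 1.64-fold, adjusted p = 0.0344). Rpl34, a large-subunit gene, had ratios of 0.52 and 0.34 at day 2, 0.74 and 0.69 at day 4, and 0.71 and 0.61 at day 7. Its day 2 values were the lowest of the 6, and the day 7 mean was 0.66 (SE 0.11, 1.58-fold, adjusted p = 0.036).

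Rpl39l is a paralog of Rpl39, whose protein lines the tunnel through which the new chain leaves the ribosome, and it is best known from the testis. Its ratios were 0.34 and -0.18 at day 2, 0.42 and 0.83 at day 4, and 1.02 and 1.01 at day 7. Both day 7 arrays stood above the other 4, and 1 array of day 2 lay below 0. Its day 7 signal was 11.68 and 11.44 in cyclosporin A skin, against 10.66 and 10.44 in ethanol skin. The day 7 mean of 1.02 (SE 0.17, 2.02-fold, adjusted p = 0.0331) was the highest of the 84. It was the one member with an unadjusted p under 0.05 between day 7 and day 2, by 0.94, and limma did not call that difference. At day 2 the signal was 11.48 and 11.19 in cyclosporin A skin and 11.14 and 11.37 in ethanol skin. Much of the difference thus lay in a lower ethanol signal at day 7, on another slide. Its parent Rpl39 had ratios of 0.09 and -0.16 at day 2, 0.11 and 0.17 at day 4, and 0.15 on the second array of day 7, its value on the first array being left out as an outlier spot. The average of Rpl39 was 0.09 (SE 0.08, adjusted p = 0.523).

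The call of each of these 5 genes at day 7 ended without either array of day 7 and without either array of day 4. A smaller share of all genes was called in those fits too. Leaving out an array of day 4 changes the pooled spread and not the day 7 ratio. The call also ended under the scanner software's processed signals, where the day 7 ratios were 0.97 for Rpl39l, 0.86 for Rpl41, 0.49 for Rpl7a, 0.53 for Rps23 and 0.54 for Rpl34.

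**Figure D2:**
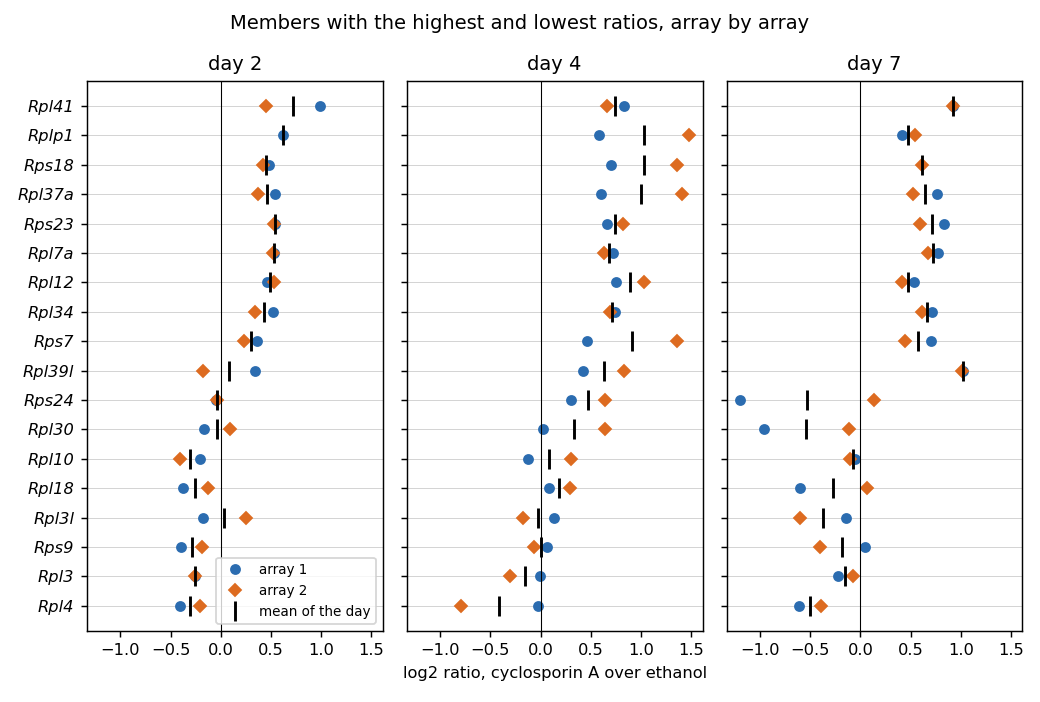
Log2 ratio of cyclosporin A over ethanol (horizontal axis) at days 2, 4 and 7 for the ribosomal protein genes with the highest and lowest ratios (vertical axis, ordered by the average over days), with 1 circle and 1 diamond for the 2 arrays of a day and a bar for their mean. Rpl41, Rps23, Rpl7a and Rpl34 lie right of 0 on all 6 arrays, Rpl39l moves furthest right at day 7, and the arrays of day 7 lie far apart for Rps24 and Rpl30.

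The other members with the highest averages belong to both subunits. Rplp1 encodes an acidic protein of the stalk, the arm of the large subunit that binds elongation factors. Its ratios were 0.62 on the first array of day 2, 0.58 and 1.48 at day 4, and 0.41 and 0.54 at day 7. The second array of day 2 was left out of its fit as an outlier spot, and 1 array of day 4 stood far above the rest. The average was 0.71 (SE 0.15, 1.64-fold, adjusted p = 0.0361). The other stalk genes were Rplp2, with an average of 0.47 (SE 0.09, adjusted p = 0.0308) from 5 arrays, the first of day 7 being left out, and Rplp0, with 0.33 (SE 0.08, adjusted p = 0.0396). Rpl12, a protein at the base of the stalk, had ratios of 0.46 and 0.53 at day 2, 0.75 and 1.03 at day 4, and 0.53 and 0.41 at day 7. Its average was 0.62 (SE 0.07, 1.53-fold, adjusted p = 0.00979). Rpl12 and Rplp1 are named because they were called, so that these genes form no independent group.

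Rpl37a, a zinc-binding protein of the large subunit, had ratios of 0.54 and 0.37 at day 2, 0.6 and 1.41 at day 4, and 0.76 and 0.52 at day 7. Rps18, in the head of the small subunit, had 0.48 and 0.42 at day 2, 0.7 and 1.36 at day 4, and 0.61 on the second array of day 7, the first being left out. Rps7, another small-subunit gene, had 0.36 and 0.23 at day 2, 0.46 and 1.36 at day 4, and 0.7 and 0.44 at day 7. In all 3 genes, as in Rplp1, the second array of day 4 was the highest of the 6. The averages were 0.7 for Rpl37a (SE 0.11, adjusted p = 0.018), 0.7 for Rps18 (SE 0.12, adjusted p = 0.0246) and 0.59 for Rps7 (SE 0.12, adjusted p = 0.029).

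Several members have roles beyond the ribosome. Rpl5 and Rpl11, which with 5S RNA bind the p53 regulator Mdm2 when assembly fails, were called higher on the average, at 0.35 (SE 0.07, adjusted p = 0.0261) and 0.37 (SE 0.06, adjusted p = 0.0193). Rps27a, made as a fusion with ubiquitin, had ratios of 0.16 and 0.2 at day 2, 0.39 and 0.54 at day 4, and 0.98 and 0.33 at day 7, and an average of 0.43 (SE 0.1, adjusted p = 0.0339). Rps6, the phosphorylated target of the S6 kinases, averaged 0.34 (SE 0.11, adjusted p = 0.0904), with the second array of day 4 at -0.1 and the other 5 between 0.23 and 0.7. Rpsa, also known as the laminin receptor, averaged -0.05 (SE 0.1, adjusted p = 0.77) on its brightest probe. Its second, much dimmer probe had means of 0.28, 0.5 and 0.35 at days 2, 4 and 7, so that the 2 probes disagree. Rps19, whose human counterpart is mutated in Diamond-Blackfan anaemia, averaged 0.25 (SE 0.08, adjusted p = 0.076), with 0.49 and 0.7 at day 4. Its binding-protein gene Rps19bp1 averaged 0.23 (SE 0.07, adjusted p = 0.0605), with 0.39 and 0.38 at day 7.

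Among the paralogs, only Rpl39l passed the test. The averages of the others were 0.29 for Rps27l, a p53-responsive paralog of Rps27, 0.27 for Rpl36al, 0.22 for Rpl7l1, 0.19 for Rpl22l1 and -0.12 for Rpl3l, with adjusted p between 0.0559 and 0.433. Their parents stood at 0.51 for Rps27 (adjusted p = 0.0167), 0.22 for Rpl36a, 0 for Rpl7, 0.24 for Rpl22 and -0.19 for Rpl3. Rpl36a lacked the first array of day 7. Rpl3l replaces Rpl3 in heart and skeletal muscle. Its ratios were -0.18 and 0.25 at day 2, 0.13 and -0.18 at day 4, and -0.14 and -0.6 at day 7, where the mean of -0.37 was not called (SE 0.17, adjusted p = 0.258). Of 5 skeletal muscle genes, 2 were called lower at day 7 and 0 higher, beside 0.642% of all genes called lower. Their median was -0.72, and 0 under median centring, and their part in the value of Rpl3l was not tested.

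No member was called lower at the main setting. Rpl4, a large-subunit protein whose extension reaches into the exit tunnel, had ratios of -0.41 and -0.21 at day 2, -0.03 and -0.79 at day 4, and -0.61 and -0.39 at day 7. All 6 values lay below 0, and the average of -0.41 missed the threshold (SE 0.11, adjusted p = 0.055). It was called lower on the average with a loess span of 0.7 (-0.43, adjusted p = 0.0452) and with no filter on dim probes (-0.41, adjusted p = 0.0496). Rpl3, at the peptidyl transferase centre, ranged from -0.31 to -0.01 over the 6 arrays and averaged -0.19 (SE 0.07, adjusted p = 0.121). Under median centring, which sets every array's median ratio to 0 and leaves the brightness trend in, both genes turned above 0 at day 7, at 0.2 for Rpl4 and 0.72 for Rpl3, where the median of all genes was 0.17. The day 7 means of Rpl30, -0.54, and Rps24, -0.53, rested on the first array of that day. Rps24 had -1.2 on it and 0.14 on the second array, Rpl30 had -0.96 and -0.11, and neither was called.

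The members are bright spots, and the brightness correction took away more of their ratio than it left. Their mean log2 brightness over both channels had a median of 15.91, against 8.61 for all genes tested. Members made up 40 of the 100 brightest genes, 52 of the 200 brightest and 67 of the 500 brightest, and 76 of the 84 lay in the 2275 brightest. Brightness describes the spot, and it was not used to rank transcripts by level. Of the 84 genes, 83 passed the scanner software's test against background on every array with either dye, and Rpl21, a dim spot, did so on 6 arrays with cyclosporin A and on 3 with ethanol. Rpl21 had an average of 0.15 (SE 0.07, adjusted p = 0.179).

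Before loess, the median ratio of the members was 1.11 and 1.29 at day 2, 1.58 and 1.29 at day 4, and 0.89 and 1.12 at day 7. The median of all genes at that step was 0.28 and 0.5, 0.46 and 0.1, and -0.11 and 0.16 on the same arrays. Loess subtracted a median of 1, 1.23, 1.3, 0.82, 0.67 and 0.96 from the members on the 6 arrays in that order, and 0.36, 0.5, 0.48, 0.09, -0.08 and 0.24 from all genes. The part left after loess was 0.14 to 0.51. The subtraction was thus larger than what remained on every array.

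**Figure D3:**
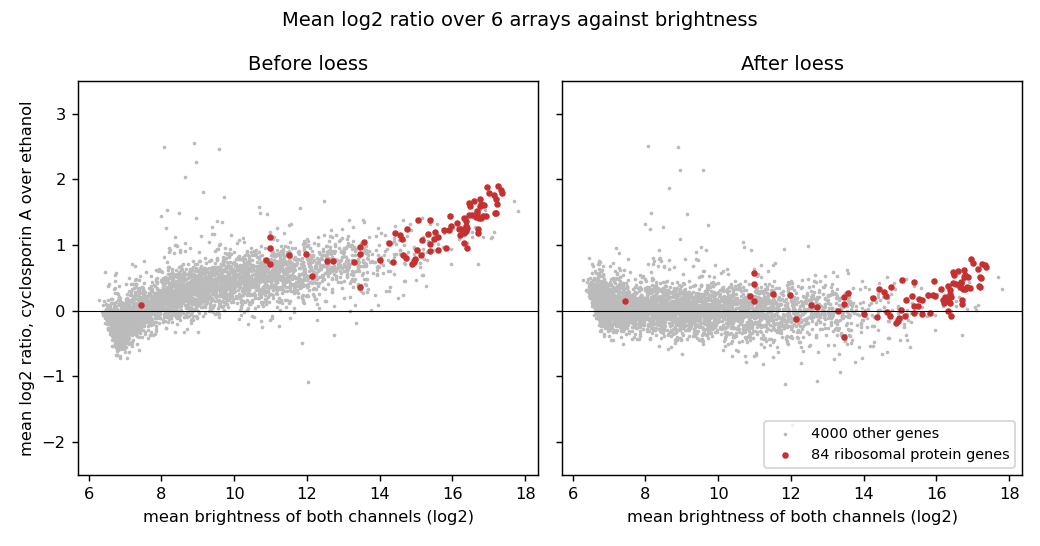
Mean log2 ratio of cyclosporin A over ethanol over the 6 arrays (vertical axes) against mean log2 brightness of both channels (horizontal axes), before loess on the left and after it on the right, for the 84 ribosomal protein genes in red and 4000 other genes drawn at random in grey. Before loess the ratio climbs with brightness in grey and red points alike, and after it the grey points lie around 0 while the brightest red points still lie above 0.

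With each array centred on its median in place of loess, the median member stood at 1.17, 1.39 and 1.16 at days 2, 4 and 7, and 82, 81 and 72 members were called higher, beside 35.3%, 23.1% and 19.3% of all genes. On the average over days 83 of 84 were called higher at a median of 1.22, beside 49.2% of all genes and a median of 0.28 for all genes. All 2275 genes of that brightest group had medians of 0.88, 0.81 and 0.65 at days 2, 4 and 7 under centring, and of 0, 0.02 and -0.06 after loess. A high ratio under centring was thus shared by the 2275 brightest genes, and dye and treatment cannot be told apart in it. With no normalization, 82 members were called on the average, beside 50.4% of all genes. With the loess curve fitted without the members' own probes, 34 were called on the average, beside 13.1% of all genes. The medians were 0.15, 0.45 and 0.22, close to the 0.13, 0.42 and 0.19 of the curve fitted with them.

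The scanner software's own ratios, corrected for dye and background by that software, gave lower medians of 0.04, 0.35 and 0.16 at days 2, 4 and 7. The median of all genes in the deposited ratios was 0.05, 0.05 and 0.02, so that at day 2 the members' median was not above it. In the deposited ratios 7 of 84 members were called on the average, all higher, beside 7.38% of all genes and 5.59% called higher. At day 7 limma called 0 (1.26% of all genes), and 13 had an unadjusted p under 0.05. From the processed signals 4 of 84 were called on the average, all higher, beside 5.24% of all genes and 3.76% called higher. Both counts on the average were near the share of all genes. Day 4 had the highest member median under each of the 10 settings plotted here, while the number of calls depended on the setting.

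**Figure D4:**
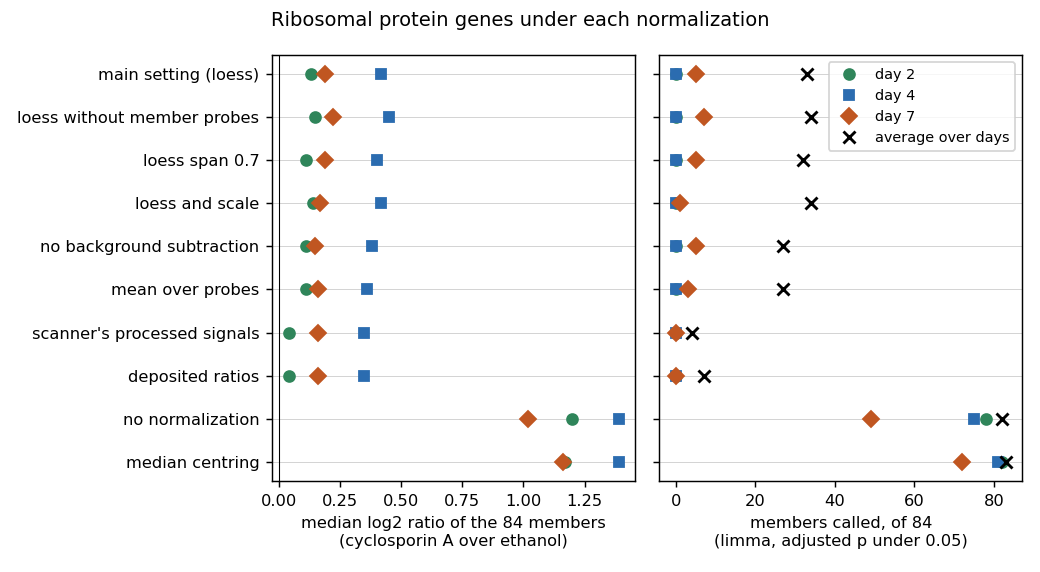
Median log2 ratio of the 84 ribosomal protein genes at days 2, 4 and 7 (left, horizontal axis) and the number of them called by limma at each day and on the average over days (right, horizontal axis) under 10 ways of processing (vertical axis). The medians lie over 1 with median centring and with no normalization and under 0.5 in the other settings, and the calls on the average range from 4 with the scanner's processed signals to 83 with median centring.

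Within the members the ratio still went with brightness after loess. Across the 84 genes the ratio and the brightness had a Spearman rho of 0.71, 0.54 and 0.37 and a Pearson r of 0.48, 0.39 and 0.18 at days 2, 4 and 7, given as a description of genes that share arrays and dyes. The 33 called members had a median brightness of 16.74 and the 51 others 15.13. Among the 100 brightest genes after loess, the 40 members had medians of 0.32, 0.54 and 0.3 at days 2, 4 and 7, and the 60 other genes 0.23, 0.26 and -0.01. On the average 27 of those 40 members and 11 of those 60 other genes were called higher. Among the 500 brightest, the 67 members had medians of 0.18, 0.46 and 0.21 and the 433 other genes 0.03, 0.08 and -0.05. The members thus stood above other bright genes by more at days 4 and 7 than at day 2 within the 100 brightest, a difference that was not tested.

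Very bright spots were read by the scanner software from a second scan at low gain and scaled up, in both channels of all 6 arrays for 55 members. These 55 had a median average of 0.33 with 28 called, the 16 members scaled up on some arrays or in 1 channel 0.17 with 3 called, and the 13 never scaled up 0.15 with 2 called. Of all genes, 274 were scaled up throughout, with a median of 0.1, 49 called higher and 11 lower. The part of this step in the members' ratios was not tested.

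Different probes of 1 gene gave different ratios. Of the 30 members with several tested probes, 19 had probes within 0.5 of each other on every day, and the median of the largest difference was 0.35. Rpl7a had 3 probes. The brightest, which stands for the gene, had 0.53, 0.68 and 0.72 at days 2, 4 and 7, the next -0.17, -0.17 and -0.31, and the dimmest -0.26, 0.08 and -0.47. With the mean over probes in place of the brightest, Rpl7a stood at -0.02 at day 7 (adjusted p = 0.945) and was no longer called. Rpl34 had a second probe at 0, 0.51 and -0.11, and its day 7 value over probes was 0.27 (adjusted p = 0.382). Rpl39l kept its direction in a second probe, at 0.29, 0.4 and 0.6, and its value over probes was 0.81 (adjusted p = 0.039).

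Over those 30 genes, the brightest probes had median ratios of 0.1, 0.35 and 0.19 at days 2, 4 and 7, and the 36 other probes 0, 0.28 and -0.08. Of the other probes, 16, 29 and 16 of 36 lay above 0. The brightest probe was above the mean of the gene's others in 22, 21 and 20 of the 30 genes. At day 4 the dimmer probes too lay mostly above 0, and at days 2 and 7 they did not. Ribosomal protein genes have many processed pseudogenes in the mouse genome, and binding of their transcripts to a probe was not tested.

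**Figure D5:**
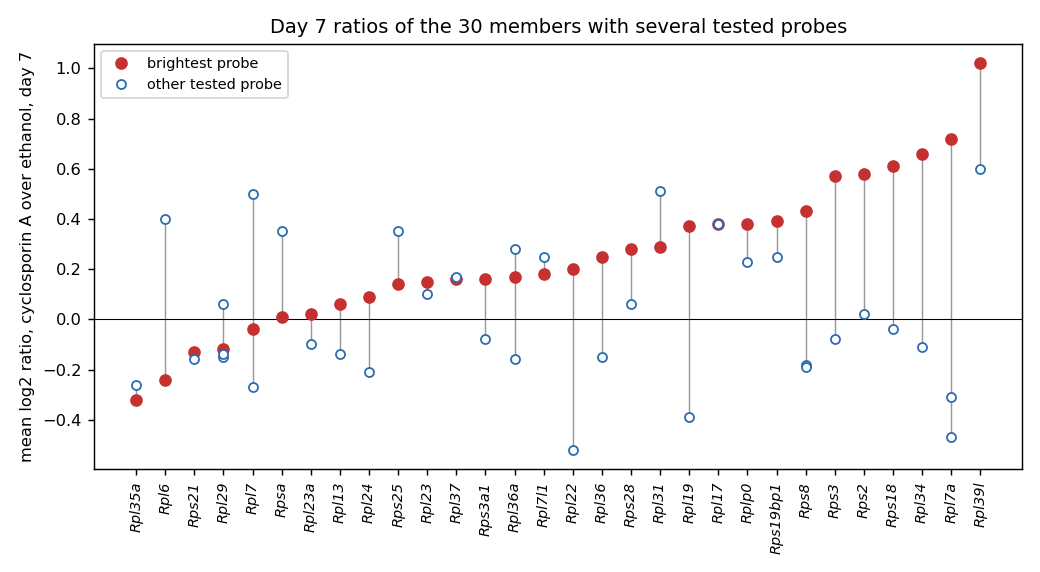
Mean log2 ratio of cyclosporin A over ethanol at day 7 (vertical axis) of each tested probe of the 30 ribosomal protein genes with several probes (horizontal axis, ordered by the brightest probe), with the brightest probe filled and the others open. The highest filled points are joined to open points near or below 0, as in Rpl7a, Rpl34, Rps18, Rps2 and Rps3, while both probes of Rpl39l lie above 0.

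The starts of the members' genes were read from RefSeq promoter sequences of assembly GRCm38.p6, which gave 64 of the 84 members. The stretches below run from 40 bases before the annotated start to 20 from it on, 5′ to 3′ on the gene's strand, with the longest run of C and T in capitals. They show a run that spans the annotated start in 3 members that rose (Rpl7a, Rpl34 and Rps27) and one that ends before it in Rpl4, the lowest of the 84. In 2 members that rose (Rpl41 and Rps23) the stretch has no run of 8 or more. The stretches are examples, and other members go the other way. Rps9, at -0.29 at day 2, has a run that spans its start, and Rpl12 and Rpl37a, both called higher, have no run of 8 or more. Rpl34 has a second annotated start, not printed, where the longest run ends before the start. A link between run and ratio was not tested.
Rpl7a, chr2:26910767-26910826, plus strand: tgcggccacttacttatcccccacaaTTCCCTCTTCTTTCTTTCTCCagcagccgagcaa
Rpl34, chr3:130730318-130730377, minus strand: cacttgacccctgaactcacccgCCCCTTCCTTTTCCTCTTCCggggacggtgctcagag
Rps27, chr3:90213629-90213688, minus strand: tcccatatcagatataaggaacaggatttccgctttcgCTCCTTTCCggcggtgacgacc
Rpl4, chr9:64173347-64173406, plus strand: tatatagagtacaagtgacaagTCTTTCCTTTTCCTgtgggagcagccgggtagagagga
Rpl41, chr10:128549149-128549208, minus strand: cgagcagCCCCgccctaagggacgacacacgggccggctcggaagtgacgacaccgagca
Rps23, chr13:90923082-90923141, plus strand: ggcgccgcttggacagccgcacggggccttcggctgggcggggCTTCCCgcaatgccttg

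A run of at least 8 bases that are all C or T was sought on the transcribed strand, between 20 bases before and 30 after an annotated start. It was found in 34 of 64 members, or 53.1%, against 21.5% of 27025 genes outside chromosome 18. CCGGAAG, the core bound by ETS family factors such as GABP, lay on either strand of the 300 bases around the start in 26 of 64, or 40.6%, against 9.93% of all genes. Both motifs were chosen after the sequences had been read. These matches describe the letters in the window and say nothing about binding or translation.

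Other genes of ribosome production and translation were read beside the members. On the average over days, 9.67% of all genes were called higher and 3.41% lower, and the counts of these lists stand beside those shares. Of 76 mitochondrial ribosomal protein genes tested, 16 were called higher on the average and 0 lower (median 0.19), led by Mrpl16 at 0.52 (SE 0.08, adjusted p = 0.015). Their medians by day were 0.09, 0.25 and 0.24, beside 0.13, 0.42 and 0.19 for the cytosolic members. Of 46 genes of ribosome assembly and the nucleolus, 13 were called higher and 0 lower (median 0.2). The highest were Nop58 at 0.6 (SE 0.09, adjusted p = 0.015) and Nop56 at 0.52 (SE 0.06, adjusted p = 0.0117), both parts of the particles that methylate ribosomal RNA, and both were also called at day 7. Fbl, the methylase of those particles, had 0.43 (SE 0.07, adjusted p = 0.0178). Of 16 RNA polymerase I genes, 3 were called higher (Polr2h, Polr1a and Polr1e) and 0 lower.

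The translation factors had calls in both directions. Of 38 initiation genes, 5 were called higher and 3 lower on the average, beside 13.1% of all genes called in either direction, with a median of 0.05 (0.84 under median centring). The 3 lower were Eif4g1, the scaffold of the cap-binding complex, at -0.48 (SE 0.08, adjusted p = 0.0181), the helicase Eif4a2 at -0.54 (SE 0.13, adjusted p = 0.0389) and Eif4ebp2, an inhibitor of cap binding, at -0.37 (SE 0.09, adjusted p = 0.0456). Of 15 elongation and termination genes, 2 were higher and 2 lower, and the 2 lower were the elongation factors Eef2 at -0.72 (SE 0.1, adjusted p = 0.0127) and Eef1a2 at -0.45 (SE 0.1, adjusted p = 0.0382). Under median centring the averages were 0.18 for Eif4g1, 0.24 for Eif4a2, 0.24 for Eif4ebp2, 0.13 for Eef2 and -0.1 for Eef1a2, where the median of all genes was 0.28. Eef2 mRNA also carries a pyrimidine tract. Of 19 genes of the TOR pathway and the S6 kinases, 2 were higher and 1 lower, near the 13.1% of all genes, with a median of -0.15 that turned to 0.22 under median centring. Of these 19 genes, 18 were above background on every array with cyclosporin A and 13 with ethanol. Genes called higher could have passed the filter on dim spots through the cyclosporin A channel alone, so their ratios are not given. Fau, made as a fusion of a ribosomal protein with a ubiquitin-like domain, averaged 0.31 (adjusted p = 0.0708) and was not called.

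Markers of cell types and of division were read on the same arrays. Of 4 cell division genes, 4 were called higher at day 7, with a median of 1.62, beside 0.27 and 1.07 at days 2 and 4 and 2.35% of all genes called higher at day 7. That median was highest at day 7, and that of the ribosomal protein genes at day 4. Of 5 genes of the hair shaft and inner root sheath, 0 were above background on every array with ethanol. They could have passed the filter on dim spots through the cyclosporin A channel alone, so their calls and ratios are not given. The 6 keratinocyte markers were well above background in both channels, with medians of 0.14, 0.12 and -0.37 at days 2, 4 and 7 and 0 called in limma at day 7 (2 at an unadjusted p under 0.05). Under median centring the medians of these bright spots were 1.12, 1.24 and 0.52, so that the sign at day 7 turns. The 6 fibroblast markers, likewise detected throughout, had medians of 0.34, -0.21 and -0.07, and 1.45, 0.83 and 0.84 under median centring, where the signs at days 4 and 7 turn. The 3 melanocyte markers were all called higher at day 7, with a median of 2.37, and 3.1 under median centring. All 3 were above background on every array with cyclosporin A, but only 2 with ethanol. The third could have passed the filter on dim spots through the cyclosporin A channel alone. The part of any change in cell types in the ratios of the ribosomal protein genes was not tested.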

How the data were processed

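The scanner files that the authors deposited give, for every spot and each dye, the median intensity, the background around it and a processed signal; the submitters' processing notes name Agilent Feature Extraction 9.1. The deposited value table holds log10 ratios of Cy5 over Cy3 from the same software, which equal those in the scanner files (they differ by 0 at most), with 22.4% to 36.2% of values at exactly 0 per array. Its background and dye corrections are those of the software, per the file headers.

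The median intensities had their background corrected by normexp (offset 50) and were normalized by loess within each array (span 0.3, control and outlier spots given no weight) in R 4.3.3, using the packages limma (3.58.1) and data.table (1.17.8), as log2 of cyclosporin A over ethanol. Of 45018 spots, 1639 were controls, 15 to 126 per array were outliers and left out, and 0 were saturated. The median signal per array was 134.5 to 187 in Cy5 and 203 to 277 in Cy3, and the number of arrays limits the precision. Spots of a probe were averaged (41174 probes). A probe entered if, on some day, both arrays had it well above background with one dye or the other (27938), and the brightest kept probe stood for a gene. Names came from a RefSeq table of GRCm38.p6, through the accession for 22951 probes and a symbol or synonym for 67, with 18156 unnamed. Signals per channel were set to 1 distribution of mean brightness across arrays with the ratios kept.

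One mean per day was fitted over the 6 arrays with limma (3 residual and 3.763 prior degrees of freedom). The days, their average and their differences were tested, adjusted by Benjamini-Hochberg over all genes, and a gene was called at an adjusted p under 0.05. The script was tested on simulated data. Replicate numbers come from the titles, since every description reads replicate 1, and nothing ties them across days. Alternatives were another centring or no normalization, loess without the members or with span 0.7, scale normalization, processed signals, deposited ratios, no background subtraction, other filters, the mean over probes, the replicate number as a block, days 2 and 4 alone, and leaving out each array. The members and lists were chosen with earlier results of these data known. Named genes were up to 10 called members by largest ratio, the 5 highest and 5 lowest at each day, members with known roles outside the subunit, paralogs with their parents, and members whose probes differed by over 1. Other genes are named as examples of a list or of a count, and some genes that the rule names are not reported here.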

Additional observations from a re-analysis of the deposited data

Results flagged for a closer look

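In 4 members both arrays of one day lay above 0 and both arrays of another day below 0, and limma called none of these differences between days. Rpl18 had 0.08 and 0.29 at day 4, against -0.38 and -0.13 at day 2, a difference of 0.44 (adjusted p = 0.999). Rpl36a had 0.1 and 0.87 at day 4, against -0.02 and -0.01 at day 2, a difference of 0.5 (adjusted p = 0.999). Rps24 had 0.3 and 0.64 at day 4, against -0.05 and -0.04 at day 2, a difference of 0.51 (adjusted p = 0.999). Rpl30 had -0.96 and -0.11 at day 7, against 0.02 and 0.64 at day 4, a difference of -0.87 (adjusted p = 0.934).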

How the results depend on the processing

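The direction of the members' median, above 0, held at each day and on the average in every alternative run, but at day 2 it was not above the median of all genes under the processed signals (0.04 for both) and the deposited ratios (0.04 against 0.05), and its size and the calls varied. Median centring gave 82, 81 and 72 calls at days 2, 4 and 7 and 83 on the average, with medians of 1.17, 1.39, 1.16 and 1.22, beside 38.3%, 24.5%, 21.8% and 59.8% of all genes called, and no normalization gave 78, 75, 49 and 82 calls with medians of 1.2, 1.39, 1.02 and 1.19, beside 25%, 10.9%, 6.08% and 50.4% of all genes. The processed signals and the deposited ratios gave 4 and 7 calls on the average, beside 5.24% and 7.38% of all genes. Both gave 0 calls at day 7 (0.971% and 1.26% of all genes), with 13 members at an unadjusted p under 0.05 in limma. Their medians were 0.04 at day 2 and 0.16 at day 7. The day 7 calls were 1 with scale normalization (1.39% of all genes) and 3 with the mean over probes (2.8% of all genes), under which Rpl7a turned to -0.02. The day 2 median was 0.15 with loess fitted without the members, 0.11 with span 0.7, with no background subtraction and with the mean over probes, and 0.14 with scale normalization. The day 7 median was 0.22, 0.15 and 0.16 with loess without the members, no background subtraction and the mean over probes. Leaving out 1 array gave 0 to 20 calls on the average, 0 to 5 at day 7, and medians of 0.13 to 0.16 at day 2, 0.34 to 0.51 at day 4, 0.19 to 0.26 at day 7 and 0.22 to 0.3 on the average. Fewer arrays leave fewer degrees of freedom; other causes were not tested. With the replicate number as a block, 20 members were called on the average (5.57% of all genes) and 0 at day 7 (1.45% of all genes, 28 members unadjusted). Deviations of samples of the same number correlated across genes at 0.01 (days 2 and 4), -0.28 (days 2 and 7) and -0.02 (days 4 and 7). With 2 arrays a day, these values cannot show whether the numbers pair samples. Of the 33 members called on the average, 33 were kept under median centring, 29 with the stricter filter, 26 with the mean over probes and 4 with the processed signals. Rpl4 was called lower on the average with span 0.7 and with no filter on dim probes. Days 2 and 4 alone, on a shared slide, gave 0 calls at either day (19 and 47 unadjusted). An alternative on mean signals was not run, since the files used here hold median signals. With 2 arrays a day and dyes not swapped, the part of a dye effect on bright spots in these ratios was not tested.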
